A study of Mus musculus with 2 samples.

Results

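Med13l, which encodes a subunit of the Mediator complex, had 1 of the 1132 circular RNAs (circRNAs) listed for mouse small intestinal crypts. It was the only circRNA named for the gene (ENSMUSG00000018076), lay at chr5:118593333-118593570 (mm10, plus strand), and consisted of the whole of exon 2, with a span of 238 bases. It was chosen by its gene name, with its short span, its back-splice reads and its level already known, so these values are a description and carry no test. The study made total RNA libraries from crypts of the small intestine of wild-type mice. Both libraries (replicates 1 and 2) form a single group with no treatment and no control, and the labels give no age, strain or sex. Titles name crypts while the cell type entry names stem cells. The labels do not say whether the libraries came from separate animals, so any spread between them may be technical.

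In circRNA formation a downstream splice site is joined to an upstream one, which closes the RNA into a ring, and the reads that span this join are called back-splice reads. Mediator carries signals from transcription factors to RNA polymerase II. Its detachable kinase module holds a cyclin-dependent kinase (CDK8 or CDK19), cyclin C, MED12 or MED12L, and MED13 or MED13L, and the MED13 proteins tether the module to the rest of the complex. Long introns on either side of an exon are a known feature of many circRNAs.

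The circle of Med13l is shown first because the reads counted below all cross its join. The sequence is exon 2 in the GENCODE M21 transcripts (mm10), written 5′ to 3′, and the capitals mark the 10 bases at each end that the back-splice brings together.
Med13l exon 2: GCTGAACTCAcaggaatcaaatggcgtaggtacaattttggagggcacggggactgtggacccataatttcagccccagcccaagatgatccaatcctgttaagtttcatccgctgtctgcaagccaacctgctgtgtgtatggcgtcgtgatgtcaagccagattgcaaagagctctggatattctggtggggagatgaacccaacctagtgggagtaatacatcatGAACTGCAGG
A back-splice read crosses the join itself, shown with the last 20 bases of the exon in lower case and its first 20 bases in capitals. How many of these bases a read had to hold on each side is not given.
Med13l join: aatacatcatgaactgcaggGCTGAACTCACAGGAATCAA
None (0) of the 141767 annotated transcripts searched on both strands held these joined bases, whereas 4 held the first 40 bases of the exon in their linear order.

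Replicate 1 gave 52 reads over the Med13l join and replicate 2 gave 58, so both libraries listed it with a similar number. Of all listed circRNAs, 330 (29.2%) had reads in both libraries. Of the 180 with at least 10 reads in total, 167 did, so reads in both libraries were usual at that depth. Levels are given as CPM, the reads scaled to all back-splice reads listed for the library (a total of 3546 for replicate 1 and of 4441 for replicate 2), which makes a single read equal to 282 CPM (replicate 1) or 225 CPM (replicate 2). On that scale the level was 14664 CPM in replicate 1 and 13060.1 CPM in replicate 2, a mean of 13862 ± 1134 CPM (SD, n = 2). Each circle has a single join, and levels were not divided by length. Med13l took 1.47% of the listed reads of replicate 1 (95% Clopper-Pearson interval 1.10 to 1.92%) and 1.31% of those of replicate 2 (0.993 to 1.69%). These intervals overlap widely. They reflect counting error alone, since the reads carry no molecular identifiers and may repeat a molecule.

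The ratio of replicate 1 to replicate 2 was 1.12 (95% interval 0.757 to 1.66), or 0.17 on the log2 scale. The interval leaves room for a difference of up to 1.66 times, so it does not show equal levels. No p is given for Med13l, since its reads in both libraries were known when it was chosen. Over all 1132 circRNAs, an exact binomial test, two-sided, of each circRNA's reads against the listed totals called 18 (1.59%) at a Benjamini-Hochberg adjusted p under 0.05, and 106 (9.36%) had an unadjusted p under 0.05. Run on the 180 circRNAs with at least 10 reads in total, the same test called 16 at that adjusted threshold. It compares these libraries and not conditions.

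Med13l ranked 7 by mean level among all 1132 circRNAs, 8 in replicate 1 and 7 in replicate 2. The 6 circRNAs with a higher mean had spans from 1528 to 19550 bases, so Med13l had the shortest span among these 7. In the order of levels, its nearest neighbour above was the longer of the circles listed for Rasa2, a gene that restrains RAS signalling, with 48 and 69 reads (13536 and 15537 CPM). Below it among circRNAs at annotated splice sites was Fam160b1, with 53 and 46 reads (14946 and 10358 CPM). The values of Med13l overlapped with those of both neighbours. Vapa, whose protein tethers the endoplasmic reticulum to other membranes, had 11562 and 11934 CPM, both below the lower Med13l value. Btnl1, which encodes a butyrophilin-like protein of gut epithelial cells, had 16357 and 16663 CPM, both above the higher Med13l value.

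**Figure D1:**
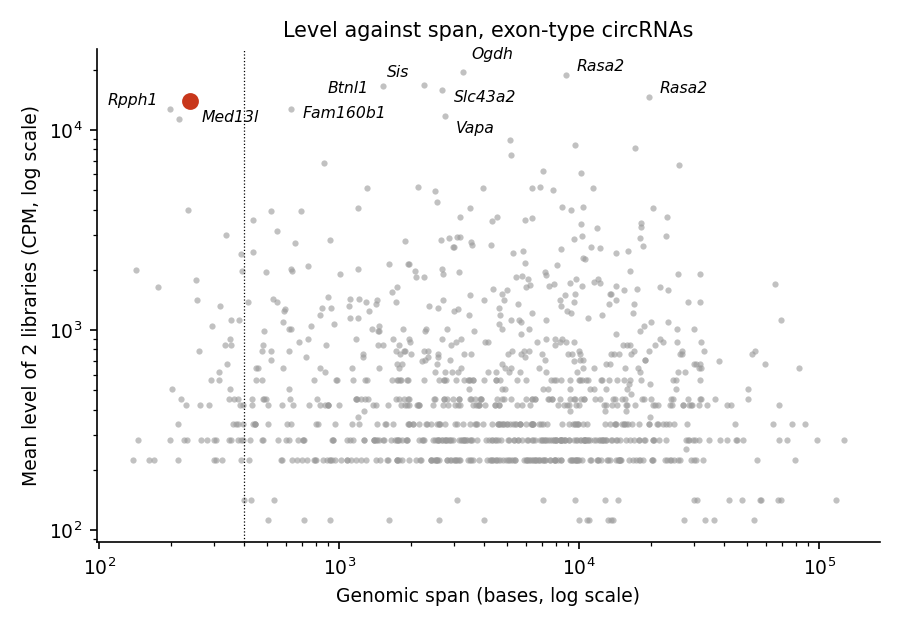
Mean CPM of both libraries against genomic span in bases (both axes logarithmic) for the 1054 exon-type circRNAs, each a point. Med13l (red, 238 bases, 13862 CPM) lies left of the dotted line at 400 bases, and the 6 circRNAs above it all lie to the right of that line, from 1528 bases upward.

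By distance of log2(CPM + 1) in the 2 libraries, the circRNAs nearest to Med13l were those of Rasa2 (distance 0.28), Fam160b1 (0.34), Vapa (0.37), Sis, the gene of the brush-border enzyme sucrase-isomaltase (0.38), and Btnl1 (0.39). By annotation all 5 spanned several exons, from 2 in Fam160b1 and Sis to 5 in Btnl1. With 2 libraries this measure says only that their levels are close.

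Short exon-type circRNAs were few. The authors' table types 1054 rows as exon, and 60 of them, Med13l included, spanned fewer than 400 bases. The other 59 had a median mean level of 423 CPM (quartiles 282 and 874), and 31 of them had 2 or 3 reads in total. Med13l stood at 32.8 times that median, at 10.1 times the median of those with at least 5 reads, and at 12.3 times the median of those with reads in both libraries. The same median, 423 CPM, was found over all 1131 other circRNAs and over the 994 exon-type rows of 400 bases or more. In both libraries 17 of the 59 (28.8%) were listed, near the 29.2% of all rows. Of the 11 that reached 10 reads over both libraries, 8 were listed in each, against 167 of the 180 such rows among all circRNAs.

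Among the 60 short rows Med13l ranked 1 by mean level and 2 within each library. In replicate 1 the first place went to Rpph1, which gives the RNA component of RNase P, with 90 reads against a listed 0 in replicate 2. In replicate 2 it went to a row of CT010467.1, a gene annotated as ribosomal RNA, with 101 reads against a listed 0 in replicate 1. Neither row lay at splice sites of 1 transcript. Their means of 12690 and 11371 CPM therefore each rest on 1 library, while Med13l was high in both. Med13l held 16.8% of the reads of the 60 rows in replicate 1 (interval 12.8 to 21.5%) and 18.6% in replicate 2 (14.5 to 23.4%).

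**Figure D2:**
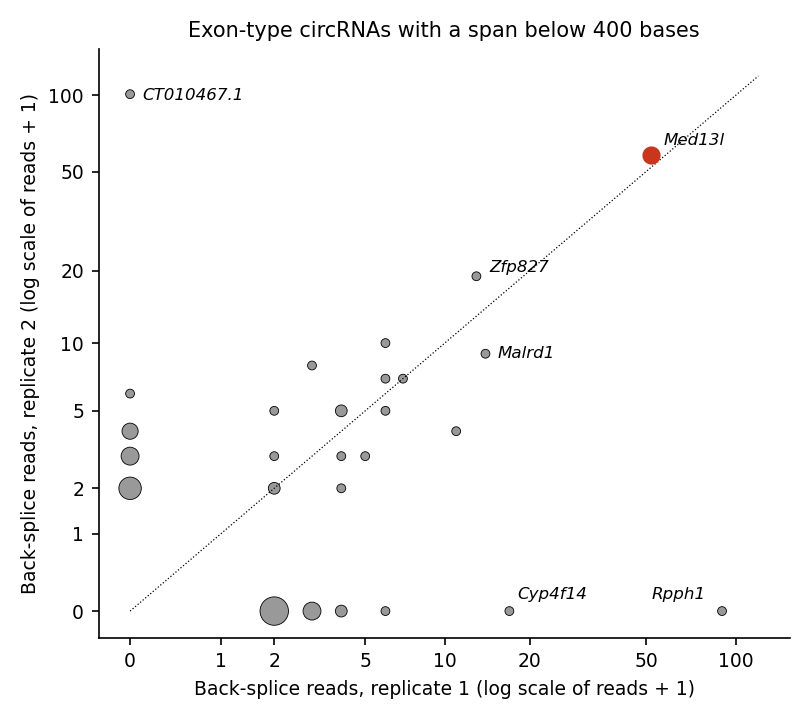
Back-splice reads in replicate 1 and replicate 2 (log scale of reads + 1) for the 60 exon-type circRNAs with a span below 400 bases, with larger points where several share a value and a dotted line at equal reads. Med13l (red, 52 and 58 reads) lies near the line at its upper end, whereas Rpph1 and CT010467.1 lie on the axes.

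Of the 59 other short rows, 52 had both ends at splice sites of 1 annotated transcript, and none of these 52 had 50 reads in total. Zfp827, which encodes a zinc finger protein, led them with 13 and 19 reads, 3972 ± 433 CPM, 3.49 times below Med13l. Malrd1, the gene of a receptor-like protein tied to bile acid control, followed with 14 and 9 reads, 2987 ± 1359 CPM. The circle of Cyp4f14, a cytochrome P450 gene, had 17 and 0 reads. Lrp6, a Wnt co-receptor gene, had 6 and 10 reads, Ubl5, a ubiquitin-like protein gene, 7 and 7, and Ndufs1, a gene of respiratory complex I, 6 and 7. Alpi, the intestinal alkaline phosphatase gene, had 11 and 4 reads on a row that was not at splice sites. In each library every one of these circles lay below the Med13l values.

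Exon-type circRNAs nearest to Med13l in genomic span mostly had few reads. Span counts any intron inside a circle, so it is not circle length: the annotated exons of the Ubl5 circle below add up to 122 bases. Spliced lengths are read from the annotation, and the inside of the circles was not observed. By annotated exons, the 6 circles above Med13l in mean level would hold from 262 bases (Sis) to 558 bases (Btnl1) once spliced. Zfp827 spanned 234 bases, again a single exon, and its sequence is shown as the closest match in size and in kind (chr8:79091833-79092066, mm10, plus strand, capitals as for Med13l).
Zfp827 exon 5: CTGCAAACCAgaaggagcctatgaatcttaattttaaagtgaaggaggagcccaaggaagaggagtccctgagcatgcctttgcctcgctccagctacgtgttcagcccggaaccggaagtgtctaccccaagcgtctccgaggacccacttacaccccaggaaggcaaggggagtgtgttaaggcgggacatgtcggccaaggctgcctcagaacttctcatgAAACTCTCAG
The next in span were Slc12a8 (232 bases, 2 and 0 reads), Trim31, a ubiquitin ligase gene (231 bases, 3 and 0 reads), Acot8, a peroxisomal thioesterase gene (226 bases, 2 and 0 reads), and Ubl5 (254 bases, 7 and 7 reads). At the limit of 400 bases, Dag1 (398 bases) had 0 and 3 reads and Lrp5 (397 bases) 3 and 0, while Gm10680 (400 bases) had 1 and 0 and Bbs9 (416 bases) 5 and 6.

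Circles of a single exon at annotated splice sites were 66 of 1008 (6.55%), of which 25 spanned fewer than 400 bases. Med13l had the highest mean level of the 66, and it held 21.1% of their 246 reads in replicate 1 and 22.6% of their 257 reads in replicate 2. After Med13l and Zfp827 came Ttll3, a tubulin glycylase gene, with 18 and 9 reads, and Foxn2, a forkhead factor gene, with 11 and 14. Exon 2 formed the circle in 38 of the 66, Med13l among them. Of all 1008 circles at splice sites, single-exon ones included, 349 (34.6%) began at exon 2. At 238 bases Med13l was on the short side, since 57 of the other 65 were longer and their median was 503 bases. Its GC content of 50% lay below their median of 53.3%.

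The introns beside the Med13l circle were long. Intron 1, before exon 2, measured 32475 bases and intron 2, after it, 77442 bases. Of the 65 other single-exon circles, 5 had a longer intron after the exon and 21 a longer intron before it. By the shorter of both introns, 9 of the 65 exceeded Med13l (median 12744 bases), as did 45 of the 1007 other circles at splice sites (median 5915 bases). For Zfp827, Ttll3 and Foxn2, the next single-exon circles in level, the shorter of both introns measured 15294, 1485 and 12592 bases. Whether intron length goes with level was not tested.

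**Figure D3:**
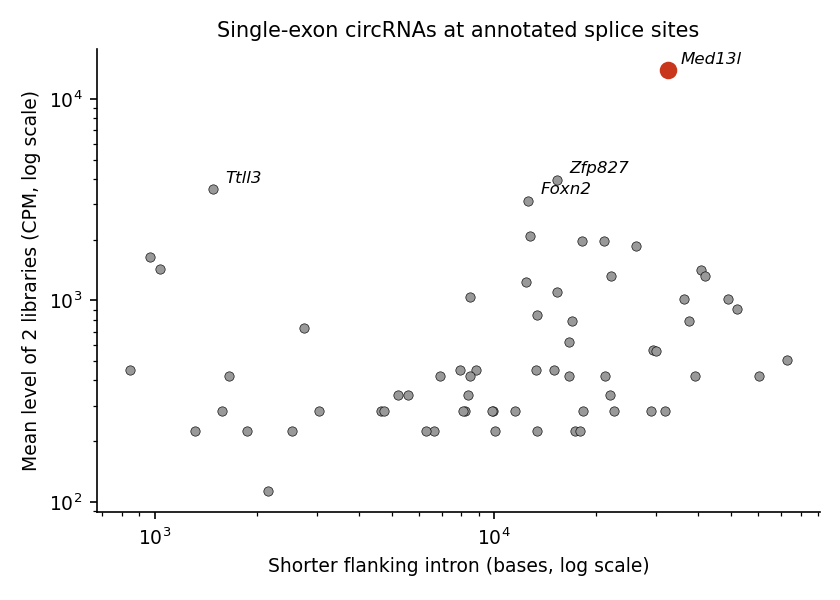
Mean CPM against the shorter of both flanking introns in bases (logarithmic axes) for the 66 single-exon circRNAs at annotated splice sites. Med13l (red, 32475 bases, 13862 CPM) is the highest point, and 9 circles to its right with longer introns lie far below it.

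Within Med13l itself, exon 2 lay between 2 of the 3 longest introns. The transcript has 31 exons and 30 introns with a median length of 1618 bases. Intron 2 was the longest of them and intron 1 ranked 3. Of the 29 inner exons, exon 2 was the only one with both introns at least as long as intron 1, and it was longer than most, with 3 inner exons above it and a median of 177 bases. None of the other 28 inner exons formed a listed circle. A single listed circRNA was usual, since 669 of the 885 genes named had exactly 1. Whether intron length has a part in which exon forms a circle was not tested.

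Med13, the paralog with the same role in the kinase module, had no listed circRNA. Most genes had none, since 4% of 20620 multi-exon protein-coding genes were named as hosts. In Med13, exon 2 has nearly the same size as in Med13l. Exon 2 of Med13 lies at chr11:86355274-86355508 (mm10, minus strand) and measures 235 bases. It is shown here so that both exons can be read against each other, with capitals at the bases identical to Med13l in a global alignment.
Med13 exon 2: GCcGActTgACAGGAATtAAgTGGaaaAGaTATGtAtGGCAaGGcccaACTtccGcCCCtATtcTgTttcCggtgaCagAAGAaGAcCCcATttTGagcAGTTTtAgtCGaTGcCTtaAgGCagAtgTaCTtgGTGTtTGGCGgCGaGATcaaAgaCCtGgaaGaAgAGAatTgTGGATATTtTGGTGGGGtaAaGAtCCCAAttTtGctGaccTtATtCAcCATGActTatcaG
In 232 aligned bases 138 were identical (59.5%), and the longest identical run was 8 bases, so a read across the Med13l join would differ from Med13 at many positions. The introns differed far more than the exons did. Those beside exon 2 measured 1951 and 9245 bases in Med13, against 32475 and 77442 in Med13l. The table holds no reads of linear transcripts, so the expression of either gene is not known here, and the part of expression or intron length in the difference was not tested.

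**Figure D4:**
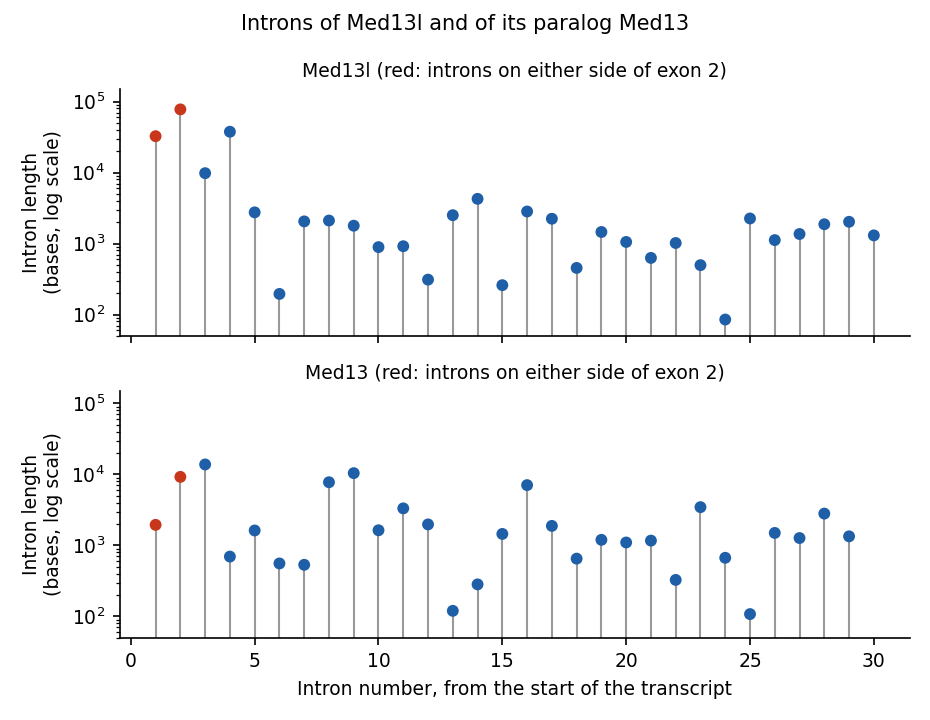
Intron length in bases (logarithmic axis) by intron number for Med13l (30 introns) and Med13 (29 introns), with the introns on either side of exon 2 in red. In Med13l they measure 32475 and 77442 bases, and in Med13 1951 and 9245 bases.

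Across Mediator, 3 of 33 genes (9.09%) were named as hosts of a listed circRNA, Med13l, Cdk8 and Med15, against 4% of 20620 multi-exon protein-coding genes. With reads in both libraries there were 2 of 33, Med13l and Cdk8, against 1.36%. Med13l was chosen as a listed host and is counted in both Mediator shares, so they are not independent of that choice. Without it, Cdk8 and Med15 remain as hosts, and Cdk8 alone with reads in both libraries. Med13l and Cdk8 belong to the kinase module, a grouping of 7 genes made after the hosts were known. Med12, Med12l, Med13, Cdk19 and Ccnc had none listed. The counts are small and no test of the list was made.

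Cdk8, the kinase of the module, had a pair of overlapping circles at chromosome 5, 146268215 to 146286239 (exons 3 to 6, 442 bases spliced) and 146259505 to 146271735 (exons 2 to 4, 328 bases spliced). The first had 8 and 19 reads, 3267 ± 1430 CPM, and the second 11 and 9 reads, 2564 ± 761 CPM. Their joins, written as for Med13l, show that reads of each can be told from the other.
Cdk8 exons 3 to 6: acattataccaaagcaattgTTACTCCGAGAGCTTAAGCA
Cdk8 exons 2 to 4: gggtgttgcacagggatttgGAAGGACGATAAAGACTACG
Together the Cdk8 circles had 19 reads in replicate 1 and 28 in replicate 2, 5832 ± 669 CPM, and Med13l was above that sum in both libraries. Med15, a subunit of the Mediator tail, had circles with 3, 2 and 1 reads in replicate 1 and 0 listed in replicate 2. Med13l thus held 67.5% of the Mediator reads in replicate 1 (52 of 77) and 67.4% in replicate 2 (58 of 86).

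**Figure D5:**
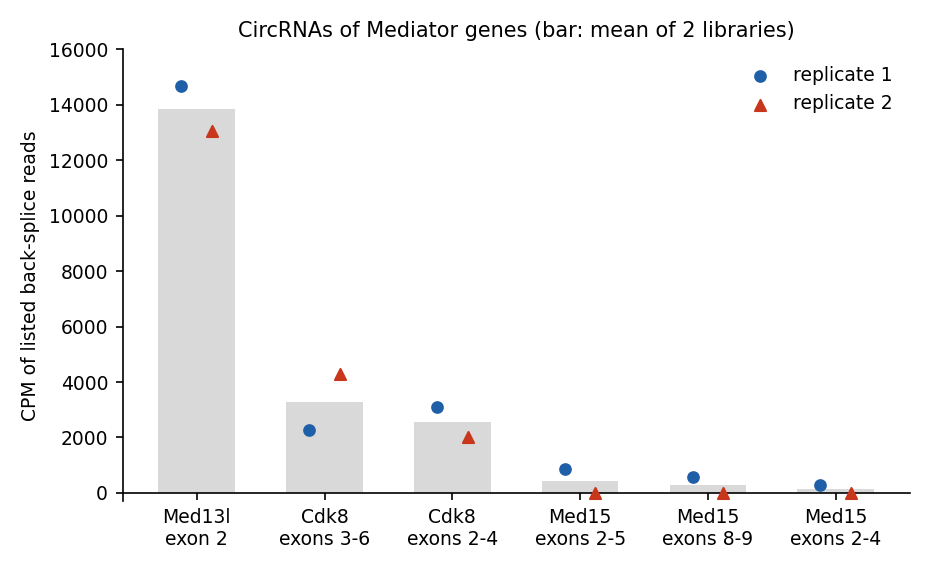
CPM of the 6 circRNAs of Mediator genes in replicate 1 (circles) and replicate 2 (triangles), with bars at the mean of both libraries. Med13l lies at 14664 and 13060.1 CPM, Cdk8 circles between 2027 and 4278 CPM, and Med15 circles at 846 CPM or less with 0 in replicate 2.

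Other parts of the polymerase II machinery also had hosts, and each of their circles was listed in 1 library. Of 25 genes of elongation and the transcription kinases, 2 were hosts: Ccnt1, the cyclin of the elongation factor P-TEFb, with 4 and 0 reads, and Aff1, a scaffold of the super elongation complex, with 2 and 0. Of 31 genes of the pre-initiation complex and RNA polymerase II, 2 were hosts: Taf4, a TFIID subunit gene, with 0 and 3 reads, and Gtf2h1, a TFIIH subunit gene, with 0 and 2. Integrator had 0 of 14. These shares (8, 6.45 and 0%) stand beside the 4% of multi-exon protein-coding genes. With reads in both libraries each list had 0 hosts, beside 1.36% of those genes, and lists this small can hold none at that share.

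For the label of the sample, 0 of 10 intestinal stem cell markers and 0 of 5 Paneth cell markers were named as hosts. Over the 20620 multi-exon protein-coding genes the share was 4% with rows of any type, and it was not computed for exon-type rows alone. The absorptive enterocyte list had 8 of 10, or 5 of 10 with exon-type rows alone. The goblet cell list had 3 of 6, or 1 of 6, and the immune list 2 of 6 either way. Among these exon-type hosts, the rows of Alpi and Apoa4 (absorptive) and of Zg16 (goblet) did not lie at splice sites of 1 transcript. The enteroendocrine (5 genes), tuft (4 genes) and stroma, muscle and endothelium (6 genes) lists had 0. A host list does not measure marker expression, and the cell type that the Med13l reads came from is not given by the data.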

How the data were processed

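Crypt RNA was prepared with an MGI library kit, per the labels' protocols, and mm10 was the build named in the submitters' processing notes. No source used here gives the aligner, the circRNA caller or its filters. The deposited table holds raw counts of back-splice reads and a signal headed CPM, which the authors made as each count times a constant (272 and 233 per read), the constants that TMM factors of edgeR 4.0.16 give.

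CPM was recomputed here from counts and listed totals, which are not sequencing depth. A listed 0 may hide a read: of 373 circRNAs with 2 reads, 1 had a read in each library. Columns were matched by sample title, and 0 were left unused. Exons and sequences came from GENCODE M21, preferring protein-coding, basic and longest coding transcripts. The counted reads cover joins only. Exon numbers and spliced lengths therefore assume every annotated exon between the ends and no intron. Exons were aligned with Biopython 1.88 (match 1, mismatch -1, gap opening -3, extension -1). Exact binomial tests (scipy 1.17.1, threshold 0.05) were tested on simulated data.

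Med13l and the gene lists were chosen with earlier results of these data known. Genes named are Med13l, the 10 short circRNAs with the highest mean, the 5 nearest in span and in level, those at the span limit and hosts of the transcription lists; Ttll3 and Foxn2 were chosen after their values were seen. Alternatives covered scaling, totals, span limits, read minimums and each library alone.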

Additional observations from a re-analysis of the deposited data

How the results depend on the processing

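Med13l's mean level was 13842 CPM with TMM factors and 14573 CPM with totals of exon-type rows, within 1 SD of 13862 CPM. It was 20522 CPM when totals counted only circRNAs in both libraries and 15290.0 CPM with totals of circRNAs at splice sites of 1 transcript, an alternative chosen after seeing the data. Both have smaller totals by construction. Single libraries gave 13060.1 to 14664 CPM. The rank among short rows was 1 with limits of 300 and 500 bases, 5 or more reads, both libraries, TMM factors or splice sites, and 2 in each single library. The median of the other short rows was 1366 CPM with at least 5 reads and 1127 CPM with reads in both libraries, filters that drop low rows, and 450.3 to 564 CPM in single libraries. The difference between the libraries stayed positive, from 0.06 to 0.21 (log2). Between the libraries 18 of 1132 circRNAs differed, 15 of 1132 with TMM factors and 12 of 1054 with totals of exon-type rows. With at least 10 reads in total the count was 16 of 180. It was 3 of 330 when totals and rows were limited to circRNAs in both libraries. As hosts, 2 or 3 Mediator genes were named, the chosen Med13l among them. No paired analysis was possible because the series has a single group. Most circRNAs had 3 reads or fewer, which limits every comparison with Med13l.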

Other observations

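The circle of Med13l also has a reading frame that passes through the join, given here as a property of the sequence printed above. Exon 2 is wholly coding, starts at coding base 73 (codon 25) in frame, and ends at coding base 310 of 6648. Its length leaves a remainder of 1 when divided by 3, so the host frame shifts with each turn. In that frame the exon holds 0 stop triplets, against 4 and 6 in the other frames. Of its 6 ATG triplets, the one at base 227 opens a run of 84 codons before a stop, the ATG included, and this run enters the host frame as it crosses the join. The frame is longer than the circle and ends at a stop triplet that begins at base 3 of the exon on a later pass. Frames through the join that were longer than the circle were frequent. They occurred in 579 of the 1007 other circles at splice sites (57.5%) and in 36 of the 65 other single-exon circles. At least 84 codons were found in 765 of the 1007. Frames with no stop were counted as longer than the circle, 268 of the 1007 and 13 of the 65, whereas the Med13l frame has a stop. No readout of translation was used here.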
